A study of Rattus norvegicus with 86 samples.

Results

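The genes described here are the nuclear genes of the mitochondrial respiratory chain, the mitochondrial ribosome and the mitochondrial protein import machinery, measured by RNA-Seq in the prelimbic cortex (PL) of Heterogeneous Stock (HS) rats, an outbred population descended from inbred founder strains. A gene was a member when the identifier in the expression table was paired, in the tables of genes with an expression quantitative trait locus (eQTL, a variant associated with a gene's RNA level), with a symbol starting with Nduf, Cox, Uqcr, Atp5, Sdh, Mrpl, Mrps, Timm or Tomm. This gave 41 members of the 17250 genes in the table. Names were known for 3292 genes (19.1%), so that most genes of these families could not be recognised by name, and every member was in the list because it had an eQTL in some brain region. Of the members, 34 lie on chromosomes 1 to 7, and no gene with the prefix Sdh was found. By role they were 7 complex I subunits, 4 complex I assembly factors, 1 complex III subunit, 4 complex IV subunits, 2 complex IV assembly factors, 2 ATP synthase subunits, 13 proteins of the large and 3 of the small mitochondrial ribosome subunit, and 5 proteins of the import machinery.

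The respiratory chain moves electrons from NADH and succinate to oxygen and pumps protons across the inner mitochondrial membrane, and ATP synthase uses the proton gradient to make ATP. Most subunits are encoded in the nucleus, translated in the cytosol and imported through the TOM and TIM translocases, while a few core subunits are encoded in mitochondrial DNA and translated by the mitochondrial ribosome, whose proteins are all nuclear. Neurons depend heavily on this pathway to restore ion gradients after firing.

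The data comprised 1 PL library from each of 80 rats (40 male and 40 female) that had received no behavioural testing or drug and were group housed. The labels give a rat batch, without stating what it stands for. Batch 2 held 14 rats (3 female), batch 3 held 23 (13 female), batch 4 held 26 (15 female), batch 5 held 1 female and batch 6 held 16 (8 female). Values are log2 of the adjusted read count plus 1, and the recovered depth was 1.85e+07 ± 3.05e+06 reads per library (SD, n = 80, range 1.02e+07 to 3.22e+07), with batch means from 1.71e+07 in batch 2 to 2.00e+07 in batch 4. At this depth every member had a value above 0 in all 80 rats, and 38 had a mean log2 value of at least 5. The exceptions were Cox6a2, Cox6b2 and Cox7a1, with means of 4.89, 3.92 and 3.02. Since PL tissue was sequenced in bulk, a lower level of a gene can stand for fewer cells that express it or for less RNA per cell.

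The columns of the deposited table come in 3 runs, each in alphabetical order of rat names, called column blocks here. Block 1 held 13 rats of batch 2 and 7 of batch 3. Block 2 held 1 rat of batch 2 and 13 of batch 3. Block 3 held 3 rats of batch 3 and every rat of batches 4, 5 and 6. What the blocks stand for is not given in the sources used here. A ribosomal RNA gene of the table lay between 1.58 and 4.86 on the log2 scale in block 3 and between 5.67 and 13.04 in blocks 1 and 2, so the libraries of block 3 stood apart. Batches 4, 5 and 6 lie wholly in block 3, so that batch and block overlap in part only in batches 2 and 3, and the difference of batch 4 or 6 from batch 3 within a block rests on 3 rats of batch 3. In 1 female rat of batch 4 the mean over the members was 8.48, against 8.68 in the next lowest rat, and 18 of 41 members had their lowest value of batch 4 in it. Its depth was 1.86e+07 reads, near the mean. The 10 most abundant genes took 6.87% of its counts, the lowest share of the 80 libraries (mean 8.76%). Genes without a read made up 3.88% of its genes (mean 3.12%, highest 5.66%). The share of all genes with their lowest value in this rat was not determined. Whether the whole library or the members in particular were shifted was therefore not tested.

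For 32 of the 41 members a promoter sequence was found by symbol in RefSeq (build GRCr8) on a matching chromosome. Each runs from 250 bases before to 50 bases after the annotated start and is written 5′ to 3′ on the gene's strand. The sequences of the 4 members with the largest differences between batches 6 and 2 are shown, namely Ndufa3 (chr1:74515509-74515808, minus strand), Ndufb2 (chr4:69334057-69334356, plus strand), Ndufc1 (chr2:137601686-137601985, minus strand) and Ndufaf8 (chr10:105879658-105879957, plus strand), with Uqcrc2 (chr1:184598990-184599289, plus strand), which was not called over the batches, for contrast. Capitals mark matches to the motifs searched.
Ndufa3: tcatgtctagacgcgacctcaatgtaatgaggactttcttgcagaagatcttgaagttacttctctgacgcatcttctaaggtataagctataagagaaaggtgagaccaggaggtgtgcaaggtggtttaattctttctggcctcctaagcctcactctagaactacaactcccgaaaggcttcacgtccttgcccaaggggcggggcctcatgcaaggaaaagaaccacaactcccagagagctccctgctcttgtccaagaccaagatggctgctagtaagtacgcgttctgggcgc
Ndufb2: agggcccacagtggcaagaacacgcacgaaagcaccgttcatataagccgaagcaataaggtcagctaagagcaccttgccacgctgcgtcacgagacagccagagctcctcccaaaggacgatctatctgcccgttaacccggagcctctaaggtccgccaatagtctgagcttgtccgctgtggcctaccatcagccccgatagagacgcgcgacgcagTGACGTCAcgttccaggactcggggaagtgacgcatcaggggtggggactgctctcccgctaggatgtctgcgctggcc
Ndufc1: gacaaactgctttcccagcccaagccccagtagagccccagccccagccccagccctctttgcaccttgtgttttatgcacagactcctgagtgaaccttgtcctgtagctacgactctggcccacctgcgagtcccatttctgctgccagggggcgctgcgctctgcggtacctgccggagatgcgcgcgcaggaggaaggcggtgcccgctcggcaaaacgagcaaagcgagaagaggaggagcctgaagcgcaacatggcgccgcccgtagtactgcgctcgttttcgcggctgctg
Ndufaf8: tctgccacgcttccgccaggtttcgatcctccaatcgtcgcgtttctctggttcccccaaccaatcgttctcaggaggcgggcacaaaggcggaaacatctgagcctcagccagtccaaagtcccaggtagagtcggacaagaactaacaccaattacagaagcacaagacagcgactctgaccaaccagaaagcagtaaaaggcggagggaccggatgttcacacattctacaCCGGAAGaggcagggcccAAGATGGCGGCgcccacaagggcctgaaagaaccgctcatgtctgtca
Uqcrc2: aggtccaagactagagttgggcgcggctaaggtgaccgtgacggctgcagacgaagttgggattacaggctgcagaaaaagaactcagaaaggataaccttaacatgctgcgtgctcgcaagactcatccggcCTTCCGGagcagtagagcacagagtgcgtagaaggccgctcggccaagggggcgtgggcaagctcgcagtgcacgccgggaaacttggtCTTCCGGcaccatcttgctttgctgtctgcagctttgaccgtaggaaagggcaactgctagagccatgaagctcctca

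Each motif was searched on both strands of the 300 bases: for NRF1 the palindrome made of GCGCA and its reverse complement, for ETS factors such as GABPA CCGGAAG, for YY1 the letters in capitals just after the start of Ndufaf8, for CREB TGACGTCA and for ESRRA TCAAGGTCA. NRF1 and GABPA are well-known regulators of nuclear genes for mitochondrial proteins. The ETS motif was in 9 of 32 member promoters (28.1%), against 8.75% of 33469 RefSeq promoters and 14.5% of the 2676 promoters of genes named in the study's tables. The NRF1 motif was in 4 (12.5%, against 0.852% and 1.2%), namely those of Mrpl17, Ndufaf4, Cox18 and Mrpl32. The YY1 motif was in 4 (12.5%, against 0.675% and 1.31%), namely those of Mrpl46, Ndufb8, Mrpl50 and Ndufaf8. The CREB motif was in 1 of 32 promoters (3.12%, against 1.83% and 2.54%), 29 bases before the start of Ndufb2. The ESRRA motif was in none (0.433% of all and 0.673% of named genes). At least 1 motif was in 17 of 32 (53.1%), against 11.9% and 19.1%. In Ndufaf8 an ETS match began 16 bases before the start and a YY1 match covered the bases just after it, whereas Ndufa3 and Ndufc1 held no match. Uqcrc2 held 2 ETS matches, 117 and 28 bases before its start. Members with and without a match were thus found both among those called over the batches and among those not called. The median GC content was 55.2% in the member promoters, 51.7% in all promoters and 60% in those of named genes.

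The first comparison was between rat batches, with sex in the model. The members were lower in batches 4 and 6 than in batches 2 and 3. The mean over the 41 members was 9.09 ± 0.14 (SD, n = 14) on the log2 scale for batch 2 and 9.18 ± 0.12 (n = 23) for batch 3, against 8.90 ± 0.13 (n = 26) for batch 4 and 8.89 ± 0.06 (n = 16) for batch 6. Over all batches 30 of 41 members were called (limma's moderated F-test, Benjamini-Hochberg adjusted p under 0.05 over 17250 genes), where 59.4% of all genes were. In batch 6 relative to batch 2, 20 members fell and none rose, while 17.7% of all genes fell and 20.6% rose. The median member difference was -0.16 (log2), against 0.02 over all genes, and 36 of 41 differences were negative. In batch 4 relative to batch 3, which share no rats with the previous comparison, 32 members fell and 1 rose, where 26% of all genes fell and 25.7% rose, and the median was -0.28 against 0.00. There were 19 members that fell in both comparisons, 95% of those that fell in batch 6 and 59.4% of those that fell in batch 4. The share of all genes that fell in both was not determined. Both comparisons set rats of block 3 against rats mostly of blocks 1 and 2, so the overlap is not an independent repeat. In batch 4 relative to batch 2, 18 members fell and 1 rose, where 37.2% of all genes were called (19.6% lower and 17.6% higher). In batch 6 relative to batch 3, 29 fell and none rose, where 49.9% of all genes were called (22.8% lower and 27.1% higher). Between batches 6 and 4 no member was called by limma, where 6.23% of all genes were called (1.7% lower and 4.53% higher). At an unadjusted p under 0.05 there were 2 of the 41 members and 3558 of the 17250 genes. Between batches 3 and 2, 1 member fell and none rose, where 3.63% of genes fell and 2.07% rose.

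**Figure D1:**
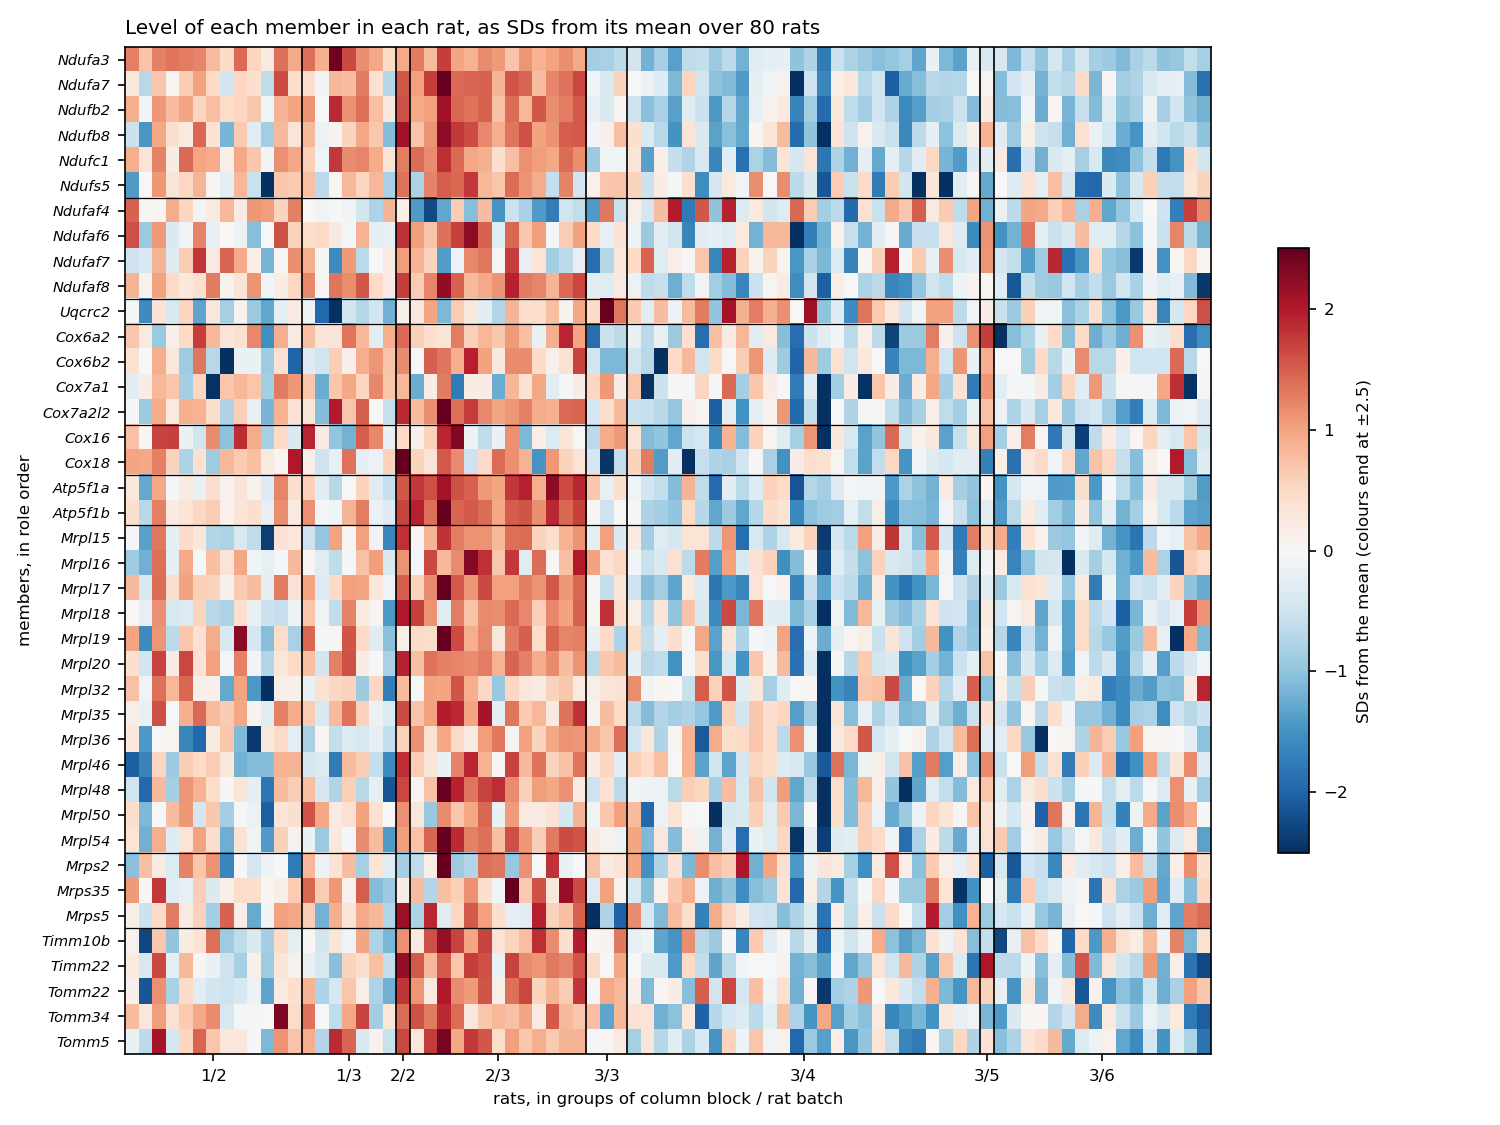
Level of 40 of the 41 members (rows, grouped by role) in each of the 80 rats (columns, grouped as column block / rat batch), in SDs from the member's mean. Most rows are high in block 2, mixed in block 1 and mostly low in block 3. Ndufa3 separates block 3 from the rest, whereas the rows of Ndufaf4 and Uqcrc2 do not follow this pattern.

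With the column block in the model the calls were lost, for the members as for nearly all genes. None of the 41 members was called over the batches, where 5.23% of all genes were. None was lower in batch 6 than in batch 2, where 0.0928% of all genes were lower, nor in batch 4 than in batch 3, where no gene was. Uqcrc2 was the 1 member lower in batch 6 than in batch 3 (-0.18 ± 0.06, adjusted p = 0.0485), where 0.609% of all genes were. The SE of a member's difference between batches 6 and 2 was 1.95 times (median) that without the block. The median member difference between batches 6 and 2 was -0.16 with the block (0.02 over all genes), and 36 of 41 were negative. No rat of batch 2 shares a block with batch 6. With the block in the model this difference is therefore linked only through batch 3, of which 3 rats lie in block 3. Whether a batch difference remains beyond the block cannot be told from it. Between batches 4 and 3 the median went from -0.28 without the block to -0.15 with it, and 35 of 41 were negative. The differences of single members moved unequally. For Ndufb2, Ndufc1 and Ndufaf8 the difference between batches 6 and 2 became -0.17 ± 0.16, -0.20 ± 0.20 and -0.19 ± 0.17, while for Atp5f1a it became -0.14 and for Tomm5 -0.20. Among the rats of block 3 alone no member was called over the batches, where 3.69% of all genes were, and the median difference between batches 4 and 3 was -0.15, with 35 of 41 negative. Some cell type markers also differed between batches 6 and 2 in the fit without the block, where 38.3% of all genes were called. Slc32a1, the vesicular GABA transporter of inhibitory neurons, was lower in batch 6 than in batch 2 by 0.41 ± 0.07 (SE, adjusted p = 1.41e-06), and P2ry12 of microglia and Dcn of the meninges were higher by 0.33 ± 0.10 (adjusted p = 0.00588) and 0.39 ± 0.13 (adjusted p = 0.015). Neurod6 of excitatory neurons, Aldh1l1 of astrocytes and Hbb of blood were not called, with differences of -0.02, -0.09 and -0.40. With the block in the model none of these markers was called, and the difference of P2ry12 turned to -0.15. Only 6 of 36 marker genes on the lists had an identifier, and their part in the result was not tested.

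Complex I, the entry point for electrons from NADH, had the largest median differences among the roles in the fit without the column block. All 7 subunits were called over the batches, where 59.4% of all genes were. In batch 6 relative to batch 2, 6 fell (17.7% of all genes did), and all 7 fell in batch 4 relative to batch 3 (26%). The median differences were -0.34 and -0.49. With the block in the model none was called, and the differences between batches 6 and 2 ran from -0.29 (Ndufs5) to 0.11 (Ndufa3). Those of the import proteins ran from -0.20 (Timm22) to -0.08 (Timm10b). Ndufa3 (ENSRNOG00000060293), an accessory subunit, lay between 8.73 and 9.48 in the rats of batch 2 (median 9.27) and between 8.06 and 10.11 in those of batch 3 (median 9.21). The range was 7.52 to 8.49 for batch 4 and 7.89 to 8.34 for batch 6, both with a median of 8.08. No rat of batch 6 or batch 4 reached the lowest rat of batch 2, which held for 0.487% and 0.203% of all genes. The fitted difference was -1.13 ± 0.11 (SE) between batches 6 and 2 (adjusted p = 2.87e-12), a level 45.6% of that in batch 2, and -1.06 ± 0.09 between batches 4 and 3 (adjusted p = 2.92e-16). Ndufa3 was the only member whose values in block 3 were all below those in blocks 1 and 2, which held for 0.0754% of all genes. With the column block in the model the difference between batches 6 and 2 turned to 0.11, with no call.

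Ndufb2 (ENSRNOG00000026616), another accessory subunit, ranged from 9.86 to 10.59 in batch 2 (median 10.23) and from 9.38 to 9.92 in batch 6 (median 9.52), so that the groups overlapped narrowly. It fell by 0.63 ± 0.09 in batch 6 relative to batch 2 and by 0.76 ± 0.07 in batch 4 relative to batch 3 (adjusted p = 1.42e-08 and 1.20e-15). Ndufc1 fell by 0.73 ± 0.10 and 0.66 ± 0.08 in the same comparisons (adjusted p = 4.51e-08 and 1.68e-10). These accessory subunits surround the catalytic core and are needed for its assembly or stability. Ndufa7 fell by 0.34 and 0.49. Ndufs5 was called in batch 4 relative to batch 3 (-0.32 ± 0.09, adjusted p = 0.00236) but not in batch 6 relative to batch 2 (-0.17 ± 0.12, adjusted p = 0.272).

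**Figure D2:**
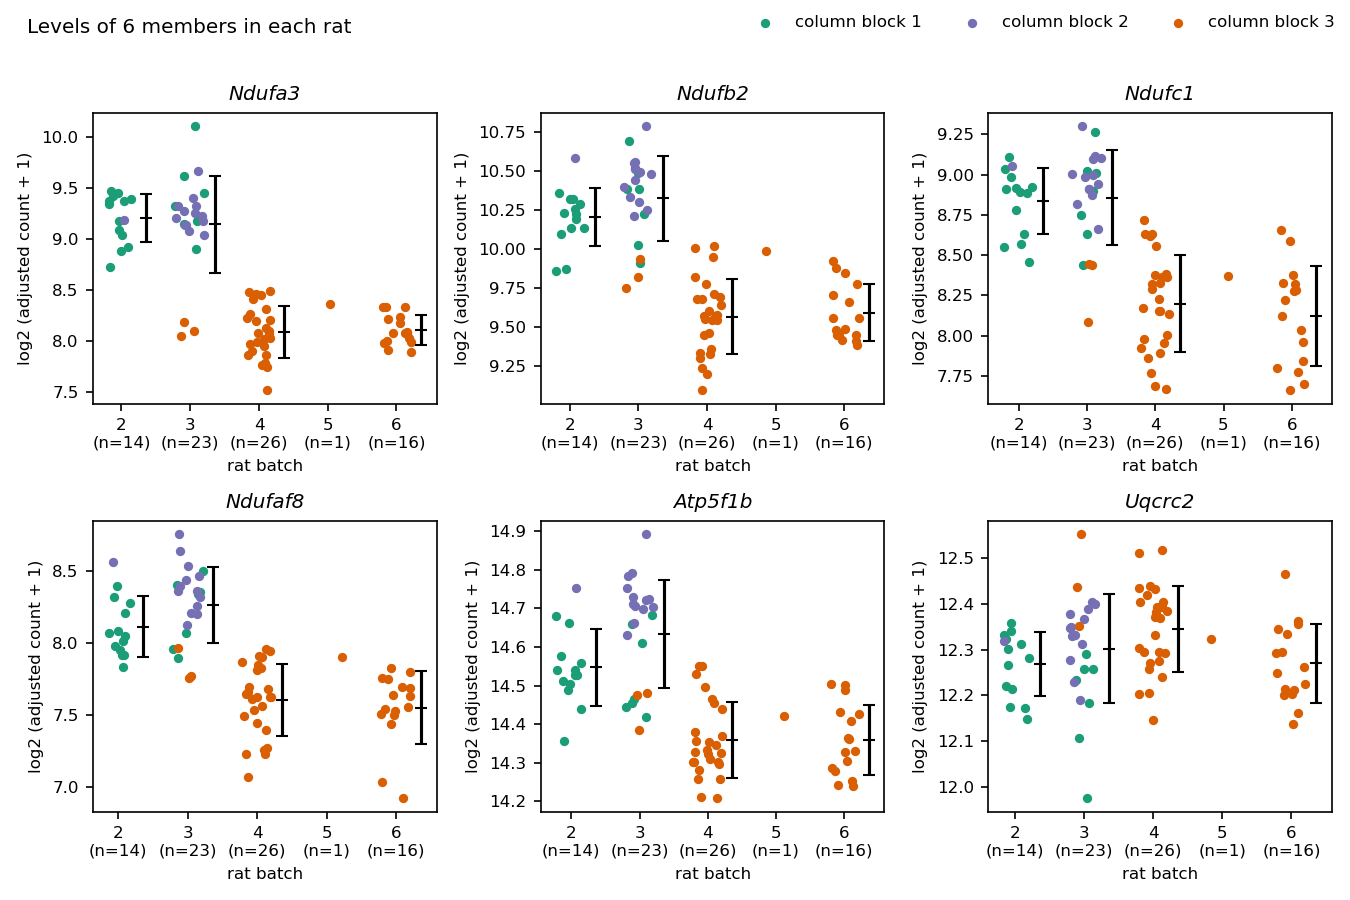
Log2 levels of 6 members in each rat by rat batch, coloured by column block, with the mean and SD of each batch beside the points (batch 5 holds 1 rat). The 3 rats of batch 3 in block 3 lie with batches 4 and 6 for Ndufa3 (8.06 to 8.19) and in the upper part of batch 3 for Uqcrc2 (12.35 to 12.55).

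The 4 complex I assembly factors, which help build the complex and are not part of it, did not move together. Ndufaf8 ranged from 7.83 to 8.56 in batch 2 (median 8.06) and from 6.92 to 7.83 in batch 6 (median 7.59), and fell by 0.57 ± 0.09 (adjusted p = 8.71e-07). In all 16 rats of batch 6 it was below every rat of batch 2, which held for 2 members in all and for 0.487% of all genes, the other member being Ndufa3. No member lay in batch 6 wholly below batch 3, which held for 0.0232% of all genes. Ndufaf7, a methyltransferase, fell by 0.15 ± 0.05 in batch 6 relative to batch 2 (adjusted p = 0.0205) but not in batch 4 relative to batch 3 (0.01, adjusted p = 0.829). Ndufaf6 fell in batch 4 relative to batch 3 by 0.41. Ndufaf4 was the only member that rose in that comparison, by 0.18 ± 0.06 (adjusted p = 0.0116), with medians of 8.88 in batch 3 and 9.07 in batch 4, and of 9.14 and 8.99 in batches 2 and 6. It was also the member that fell in batch 3 relative to batch 2, by 0.28 (adjusted p = 0.0181).

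Uqcrc2, a core protein of complex III and its only member here, was not called over the batches (adjusted p = 0.121). Its values ran from 12.15 to 12.36 for batch 2 (median 12.29) and from 11.97 to 12.55 for batch 3 (median 12.33). The ranges of batches 4 and 6, at 12.15 to 12.52 (median 12.37) and 12.14 to 12.47 (median 12.26), overlapped with both. The difference between batches 6 and 2 was 0.01 ± 0.04. Uqcrc2 was the only member higher in batch 4 than in batch 2, by 0.08 ± 0.03 (adjusted p = 0.0495). The call was lost with libraries centred, with depth or the block as a covariate, and without a variance trend. It was also lost in each sex alone and without the 3 rats of batch 3 in block 3. With the block in the model the differences from batch 2 turned to -0.24 ± 0.07 for batch 6 and -0.16 ± 0.07 for batch 4, neither called.

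Of the complex IV subunits, 3 are isoforms or relatives best known outside the brain: Cox6a2 and Cox7a1 from heart and skeletal muscle and Cox6b2 from testis. Cox6a2 ranged from 4.17 to 5.70 in batch 2 (median 5.11) and from 3.70 to 5.43 in batch 6 (median 4.49), which overlap, and fell by 0.51 ± 0.16 (adjusted p = 0.00624), a difference that turned to 0.24, with no call, with the column block in the model. Cox7a1 spanned 1.00 to 4.52 over the rats and was not called in any batch comparison (over all batches adjusted p = 0.226). Cox6b2 was not called over the batches but fell in batch 4 relative to batch 3 by 0.52 (adjusted p = 0.0128), which turned to 0.42, with no call, with the block in the model. Cox7a2l2 fell by 0.27 ± 0.09 in batch 6 relative to batch 2 and by 0.45 ± 0.06 in batch 4 relative to batch 3. Its symbol lies on another chromosome in RefSeq than in the study's table, so its identity is uncertain. The assembly factors Cox16 and Cox18 were both called over the batches (adjusted p = 0.0306 and 0.00317), and Cox18 fell by 0.17 ± 0.07 in batch 6 relative to batch 2 (adjusted p = 0.0398), which turned to 0.0496, with no call, with the block in the model.

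Atp5f1a and Atp5f1b, the alpha and beta subunits that form the catalytic head of ATP synthase, both fell by small amounts. Atp5f1b ranged from 14.36 to 14.75 in batch 2 (median 14.53) and from 14.24 to 14.50 in batch 6 (median 14.35), and fell by 0.19 ± 0.04 (adjusted p = 1.09e-04), to 87.4% of the level in batch 2. Atp5f1a fell by 0.11 ± 0.04 (adjusted p = 0.00893). In batch 4 relative to batch 3 they fell by 0.28 ± 0.03 and 0.18 ± 0.03.

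Proteins of the mitochondrial ribosome had smaller median differences than complex I. Of 13 proteins of the large subunit, 8 were called over the batches, a share near that of all genes (59.4%). In batch 6 relative to batch 2, 5 fell (17.7% of all genes did), and 10 fell in batch 4 relative to batch 3 (26%). None was higher in either comparison, and the medians were -0.11 and -0.19. Mrpl17 had the smallest p over the batches (adjusted p = 8.35e-12). It ranged from 10.08 to 10.47 in batch 2 and from 9.80 to 10.28 in batch 6, and fell by 0.24 ± 0.05 (adjusted p = 1.39e-04). Mrpl32, Mrpl36 and Mrpl46 fell in neither comparison. Of the 3 proteins of the small subunit only Mrps35 was called (over all batches adjusted p = 1.67e-04), and it fell by 0.29 ± 0.06 in batch 4 relative to batch 3. The medians of Mrps2 were 10.10, 10.12, 10.12 and 10.07 in batches 2, 3, 4 and 6 (over all batches adjusted p = 0.103).

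All 5 import proteins were called over the batches, where 59.4% of all genes were. Tomm5, a small subunit of the outer membrane translocase, and Tomm34, a cytosolic co-chaperone of import, fell in batch 6 relative to batch 2 by 0.25 ± 0.06 and 0.17 ± 0.04 (adjusted p = 0.00128 and 2.17e-04). Tomm22, the central receptor, differed by -0.07 ± 0.05 there (adjusted p = 0.345) and fell by 0.12 ± 0.04 in batch 4 relative to batch 3 (adjusted p = 0.00912). All 5, with Timm22 and Timm10b of the inner membrane route, fell in batch 4 relative to batch 3, where 26% of all genes fell. With the block in the model none of the 5 was called in these comparisons.

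**Figure D3:**
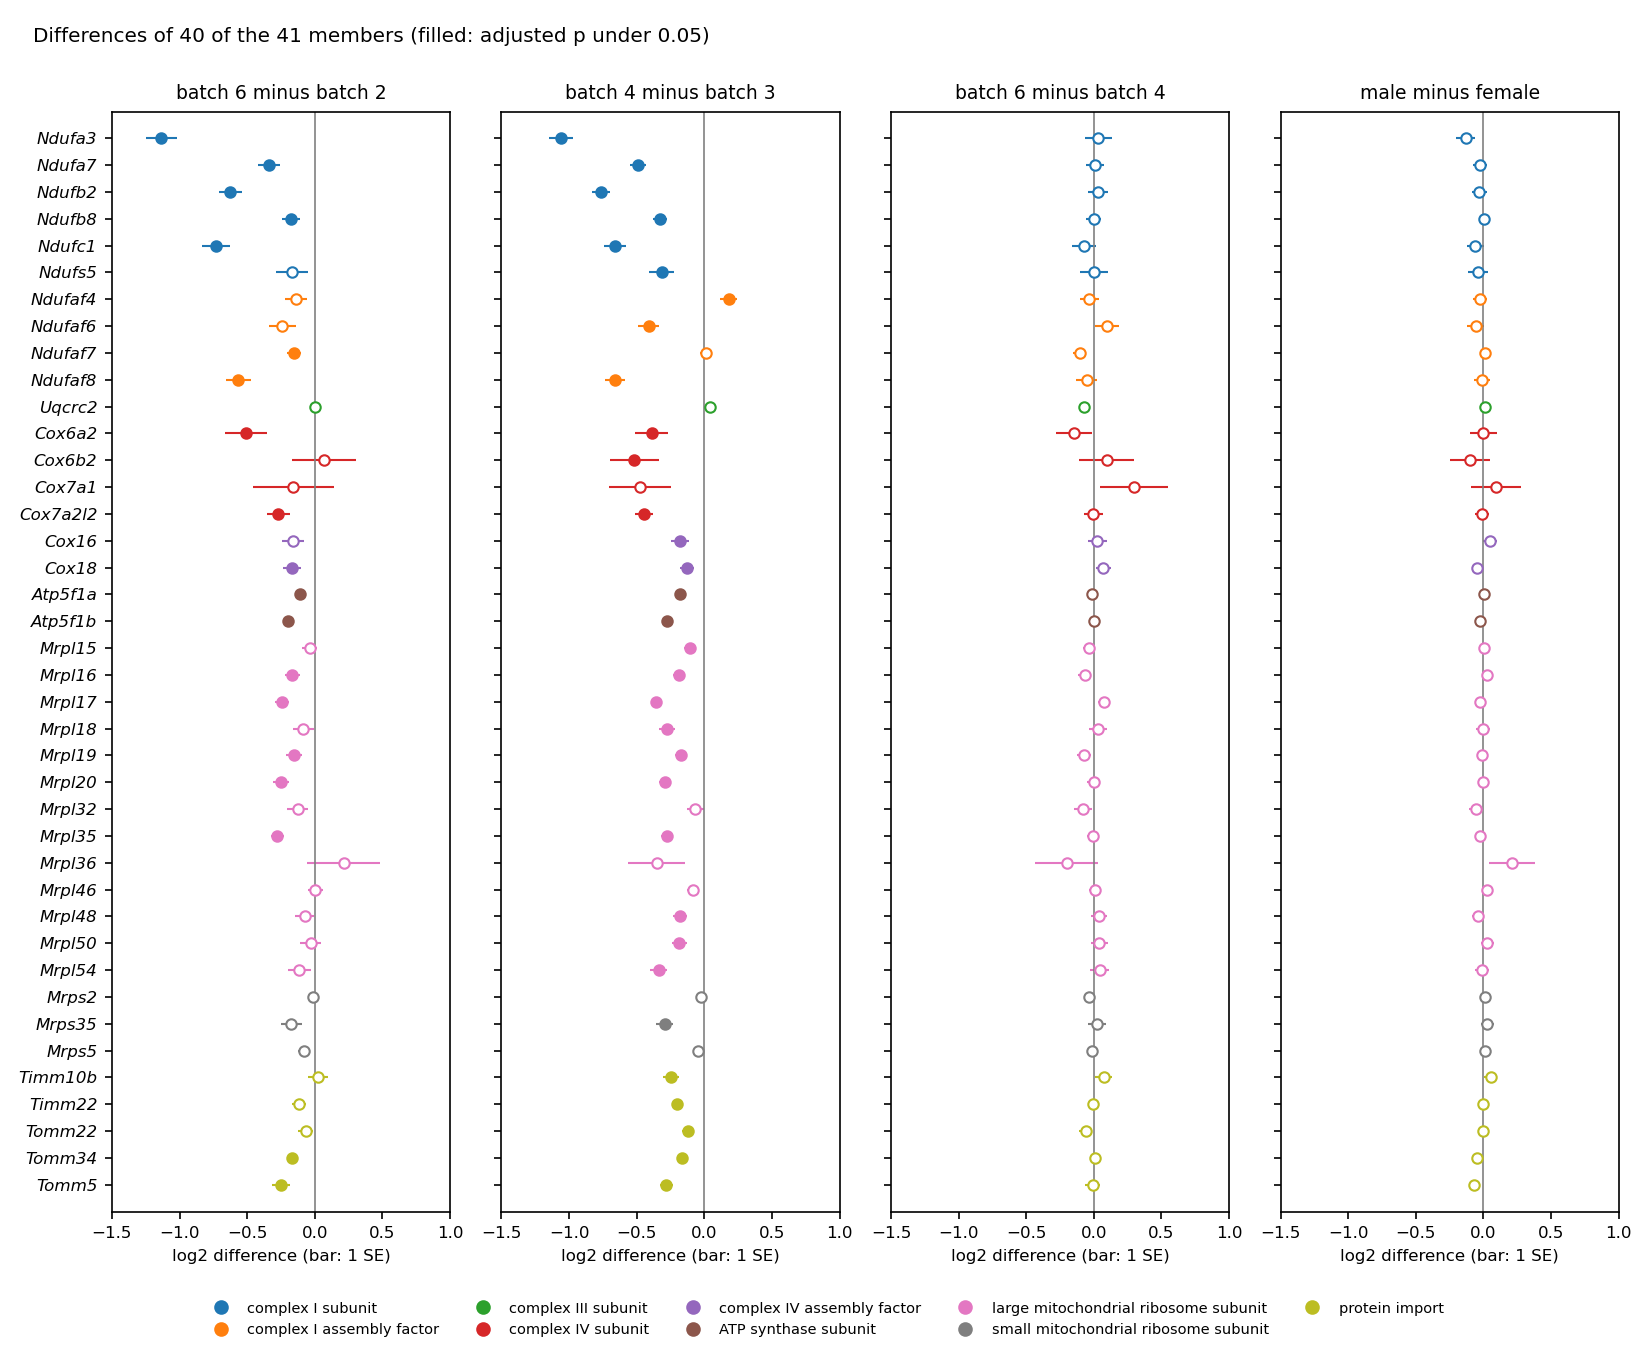
Fitted log2 differences of 40 of the 41 members, without the column block in the model, with bars of 1 SE and filled points at adjusted p under 0.05. Ndufa3 of complex I lies farthest below 0 in the first 2 panels. The complex I points shown there run from -1.13 to -0.17 and from -1.06 to -0.32, and overlap those of other roles. No point is filled for batch 6 minus batch 4 or for male minus female.

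Other genes of the pathway were looked up in lists chosen with earlier results known. Only 7 of 135 had an identifier. Of 5 genes of the tricarboxylic acid cycle, which supplies NADH and succinate to the chain, 4 fell in batch 6 relative to batch 2 (17.7% of all genes did), 2 in batch 4 relative to batch 2 (Fh and Suclg1) and 3 in batch 4 relative to batch 3. With the block in the model none was called between batches 6 and 2, and Fh differed by -0.20 ± 0.08. Without it, Fh, fumarase, fell by 0.23 ± 0.04 (adjusted p = 4.71e-06) and Suclg1, a subunit of succinyl-CoA ligase, by 0.21 ± 0.05 (adjusted p = 1.36e-04). Ppargc1a, a coactivator of nuclear genes for mitochondrial proteins, was higher by 0.47 ± 0.09 (adjusted p = 1.08e-05), the opposite direction. With the block in the model the difference of Ppargc1a was 0.27 ± 0.17, with no call. Gfm1, a mitochondrial elongation factor, was not called without the block (0.03, adjusted p = 0.624).

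The column block could be examined within batch 3, where 3 rats lay in block 3 and 20 in the other blocks. For Ndufa3 the values of the 3 rats were 8.06, 8.10 and 8.19, and the other 20 ranged from 8.90 to 10.11, so the groups did not overlap. With batch and sex in the model, Ndufa3 was lower in block 3 by 1.16 ± 0.14 (adjusted p = 6.62e-09), about as much as batches 4 and 6 were below batches 2 and 3. Ndufb2 was 9.75, 9.82 and 9.94 in the 3 rats and 9.91 to 10.79 in the others, and fell by 0.56 ± 0.13 (adjusted p = 0.00353). Cox6a2 was 4.00, 4.58 and 4.64 against 4.75 to 5.78, and fell by 0.83 ± 0.24 (adjusted p = 0.0231). In all, 7 of 41 members fell and none rose (4.1% of all genes fell and 4.81% rose), the others being Ndufc1, Ndufaf8, Atp5f1b and Mrps5. The values of 2 members, Ndufa3 and Cox6a2, did not overlap between the 3 rats and the rest, where 1.24% of all genes lay below without overlap, and no member lay above without overlap, where 0.858% of all genes did. The median member difference was -0.12, less than between the batches. Uqcrc2 was higher by 0.16 in the 3 rats without being called (adjusted p = 0.0638). A comparison that rests on 3 rats is imprecise. Within males or females alone 2 and 1 members were called, where 390 and 24 of all genes were.

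Blocks 1 and 2 also differed. With batch and sex in the model, 21 of 41 members were higher in block 2 than in block 1 and none was lower, where 24.5% of all genes were called (11.6% higher and 12.9% lower), and the median member difference was 0.18. Signs of library composition moved with these blocks. The ribosomal RNA gene was 9.20 ± 1.34 (SD, n = 20) in block 1 and 10.76 ± 1.74 (n = 14) in block 2, the 10 most abundant genes took 8.27% and 9.72% of counts, and 2.87% and 3.4% of genes were at 0. Their part in the result was not tested. Atp5f1a was 13.68 to 13.84 in the 7 rats of batch 3 in block 1 and 13.88 to 14.04 in the 13 in block 2, without overlap, which held for 2 members and for 0.504% of all genes, and differed by 0.20 ± 0.03 (adjusted p = 8.13e-06). Of the large ribosome subunit 10 of 13 proteins were higher in block 2, and Uqcrc2, which was not called over the batches, was higher by 0.13 ± 0.04 (adjusted p = 0.00764). Ndufa3 was not among the 21, and in batch 3 it was 8.90 to 10.11 in block 1 and 9.04 to 9.67 in block 2. Ndufb2 and Ndufc1, with differences of 0.19 ± 0.09 and 0.14 ± 0.11 (adjusted p = 0.0892 and 0.388), were not among them either.

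The second comparison was between males and females, with batch in the model. None of the 41 members was called by limma, where 0.365% of all genes were. An unadjusted p under 0.05 was found for 1349 of the 17250 genes and for 1 member. This was Tomm34, with 11.11 ± 0.13 in males and 11.13 ± 0.13 in females (SD, n = 40 each) and a fitted difference, male minus female, of -0.05 ± 0.02 (adjusted p = 0.626). The next smallest p-values were those of Ndufa3 (-0.13 ± 0.07, adjusted p = 0.686) and Tomm5 (-0.07 ± 0.04, adjusted p = 0.731). Neither in any of batches 3, 4 and 6 alone nor without batch in the model was a member called. Sex accounted for a median of 0.154% of a member's variance (0.442% over all genes) and at most 1.81%. The medians for rat batch and column block, each taken alone, were 27.7% and 30.6% (16.8% and 15.1% over all genes). Whether the sex difference varied with batch was tested as an interaction over batches 2, 3, 4 and 6. Neither a member nor any other gene was called by limma (0% of genes). At an unadjusted p under 0.05 there were 410 genes, among them 1 member, Uqcrc2.

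The third question was how the members varied from rat to rat once sex and batch had been removed. The median residual SD of the members was 0.19 (jackknife SE over rats 0.02), from 0.08 in Mrps2 to 0.81 in Cox7a1, against 0.23 over all genes and 0.18 over genes with a mean of at least 5. Mrps2, Atp5f1a and Uqcrc2 varied least, with SDs of 0.08, 0.09 and 0.10. At most 4.96% of all genes had a smaller residual SD than these. Cox7a1, Mrpl36 and Cox6b2 varied most, with 0.81, 0.75 and 0.64, and Cox7a1 and Cox6b2 are among the 3 members with the fewest reads.

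Pairs of members with a physical or functional link were correlated over the residuals of the 80 rats, as Pearson's r and Spearman's rho with two-sided permutation tests of 100000 resamples, adjusted over 7 pairs, of which 6 are described. Atp5f1a and Atp5f1b, which alternate in the same ring, had r = 0.91 and rho = 0.90 (both permutation p = 1.00e-05, the smallest the resamples can give, adjusted p = 3.50e-05), between 0.89 and 0.95 within batches, and r = 0.91 without the 2 rats farthest from the median of Atp5f1a. Ndufa3 and Ndufb2 had r = 0.67 and rho = 0.58 (both permutation p = 1.00e-05, adjusted p = 3.50e-05), 0.49 to 0.80 within batches, 0.60 without the 2 farthest rats and 0.62 with the block also removed. Tomm5 and Tomm22 had r = 0.41 and rho = 0.38 (permutation p = 1.30e-04 and 6.60e-04, adjusted p = 2.27e-04 and 0.00115) and 0.37 without the 2 farthest rats, but within batches r ran from -0.09 in batch 6 to 0.77 in batch 2. A difference between batches in this relation was not tested.

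A further 3 pairs were not called. The muscle isoforms Cox6a2 and Cox7a1 had r = 0.02 and rho = -0.05 (permutation p = 0.872 and 0.676, adjusted p = 0.872 and 0.676), and Cox7a1 rests on few reads. Mrps2 and Mrps5 had r = 0.03 and rho = 0.07 (permutation p = 0.802 and 0.541, adjusted p = 0.872 and 0.631), with r from -0.50 in batch 2 to 0.49 in batch 6. Ndufaf4 and Ndufaf6 had r = -0.14 and rho = -0.11 (permutation p = 0.209 and 0.310, adjusted p = 0.292 and 0.434), negative in all 4 batches but positive in batches 2 and 3 (0.05 and 0.22) with the block also removed. Without the 2 farthest rats, r in these pairs was -0.0029, 0.04 and -0.19.

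**Figure D4:**
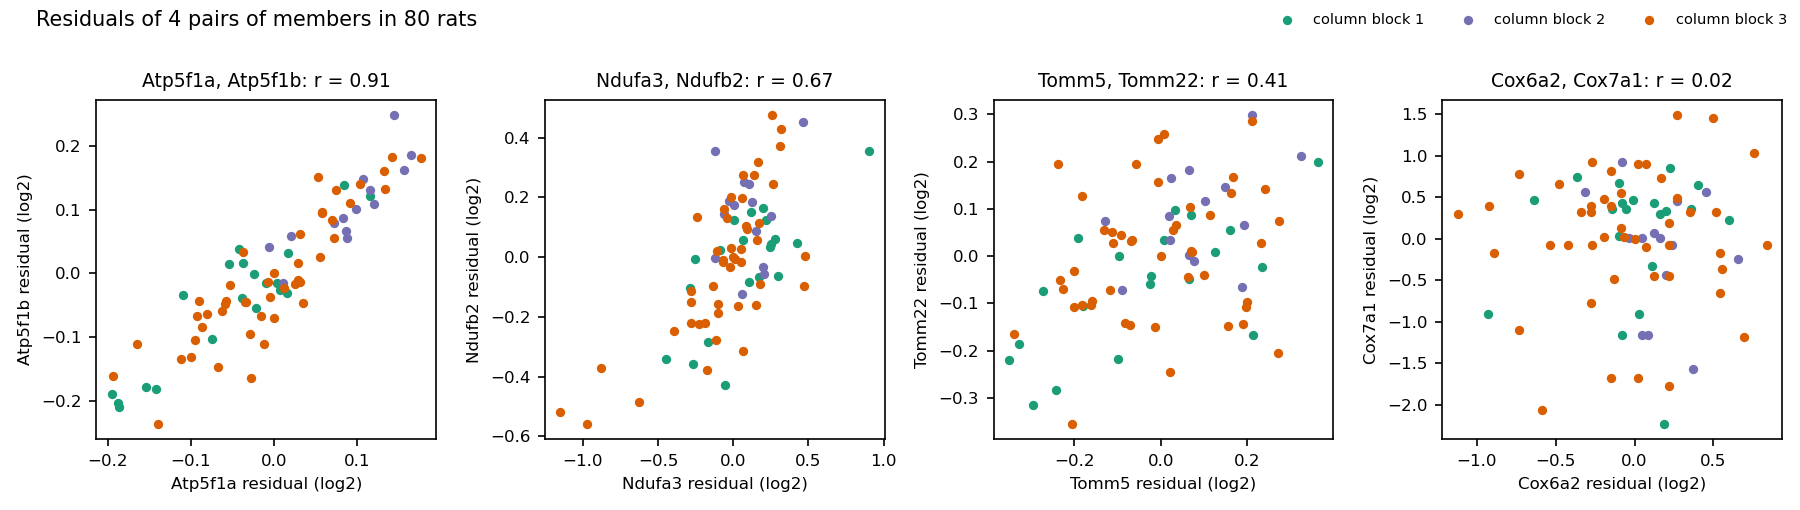
Residuals (log2, sex and batch removed) of 4 pairs of members in the 80 rats, coloured by column block. The points of Atp5f1a and Atp5f1b follow a line (r = 0.91), those of Ndufa3 and Ndufb2 and of Tomm5 and Tomm22 spread more (r = 0.67 and 0.41), and those of Cox6a2 and Cox7a1 show no slope (r = 0.02).

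Over all 820 pairs of members the median r of the residuals was 0.30 (jackknife SE over rats 0.04), and 749 pairs had r above 0, while the median over all pairs of genes was 0.00. The libraries, their depth and any split not removed are shared by all these points, and with the column block also removed the median was 0.26. Within roles the median was 0.47 among the 7 complex I subunits, 0.46 among the 13 proteins of the large ribosome subunit, 0.43 among the 5 import proteins and 0.21 among the 4 complex IV subunits. In the first 2 of these groups every pair had r above 0, and with the block also removed 21 of 21 and 73 of 78 did. It was 0.11 among the complex I assembly factors, 0.06 for Cox16 and Cox18, and 0.03 among the 3 proteins of the small ribosome subunit. Among the highest after the ATP synthase pair were pairs across roles, with 0.83 for Atp5f1b and Mrpl17 and 0.82 for Ndufb8 and Mrpl54. Ndufaf4 stood apart, with a mean r of -0.07 with the other members and the 5 lowest values, from -0.48 with Tomm34 to -0.36 with Timm22. Mrps2 and Cox18 were also nearly uncorrelated with the rest (mean r of 0.05 and 0.08).

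**Figure D5:**
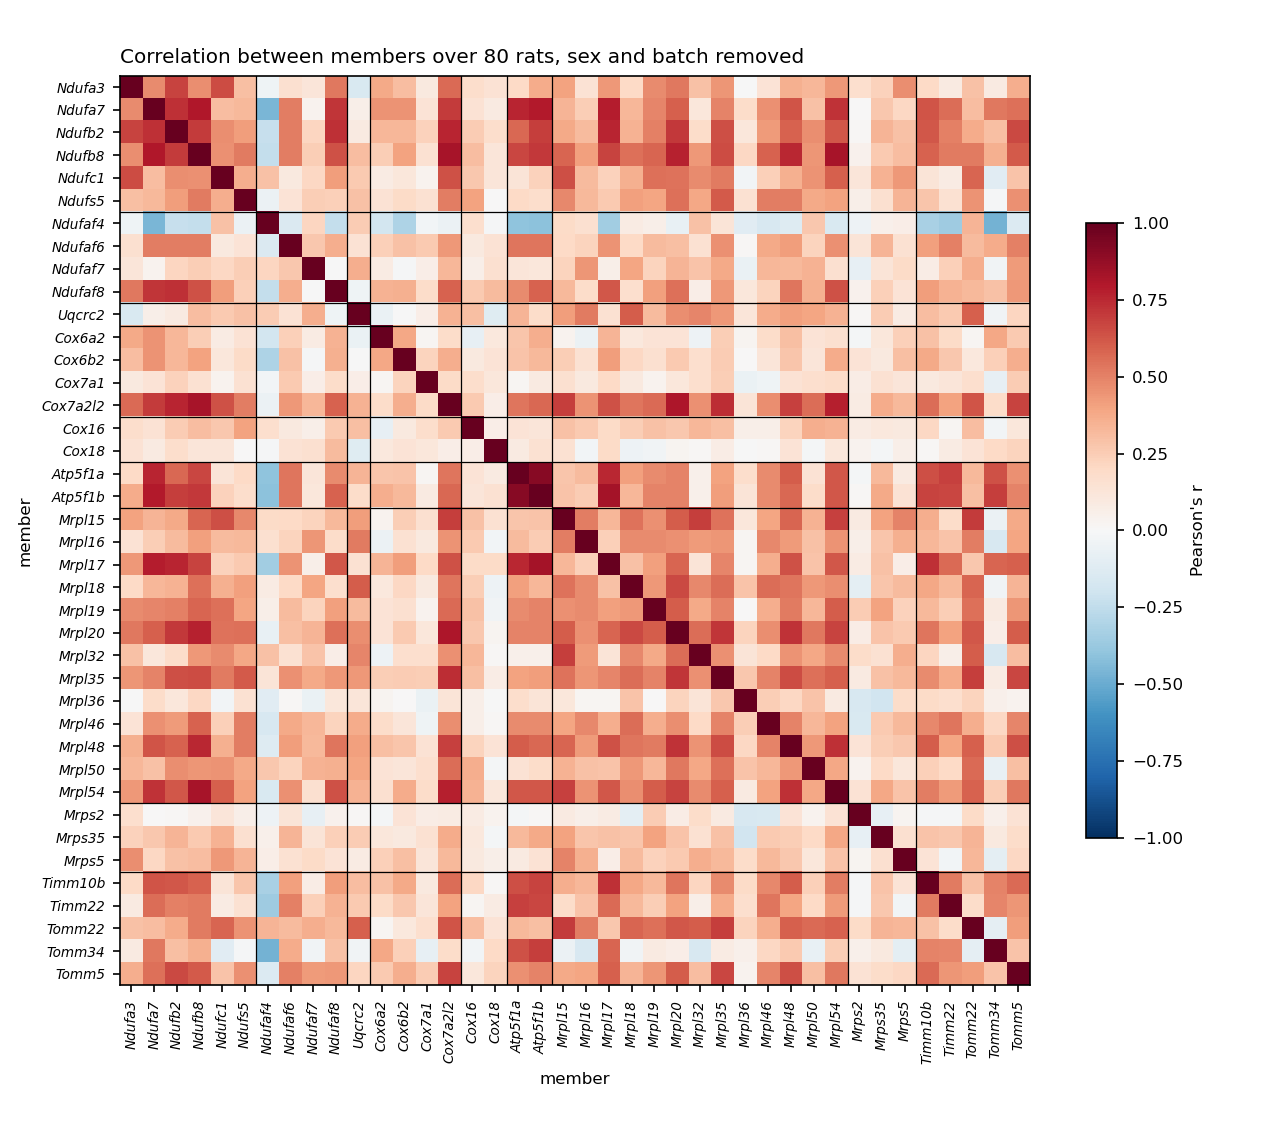
Pearson's r between the residuals (sex and batch removed) of each pair of 40 of the 41 members over 80 rats, with lines between role groups. Most cells are positive (749 of the 820 pairs of all members), the row of Ndufaf4 is mostly negative, and the rows of Mrps2, Cox18, Mrpl36 and Cox7a1 are near 0.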

How the data were processed

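RNA-Seq of polyadenylated RNA was made from bilateral PL dissected from frozen brain sections. Per the labels and the methods, the authors trimmed reads with cutadapt, counted them with RSEM against the rat transcriptome (Rnor_6.0), adjusted counts between samples with DESeq2 by the upper quartile, and filtered samples and genes. The deposited unit is log2 of these adjusted counts with 1 added. Versions are not given in the sources used here. After undoing the log, 100% of values were whole numbers within 0.1%. Library depth was estimated from the steps between these whole numbers, and in 2 libraries the estimate was less certain. Of 86 labelled samples 80 entered the table. The other 6 were not analysed here (3 expression outliers, 2 with mismatched genotypes and 1 with few reads).

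Sex and rat batch came from the labels. Nothing beyond 1 library per rat gives replication, so p-values measure the spread between rats. Differences were fitted to the deposited log2 values of all 17250 genes with limma 3.58.1 (R 4.3.3, variance trend on), with sex and batch in the model and Benjamini-Hochberg adjustment over all genes at 0.05. Because of the added 1, fold changes of low genes are understated, and without gene lengths levels were not compared between genes. Pairs were tested on residuals with scipy 1.17.1. Promoters came from RefSeq, and no coordinates were moved between builds.

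The members and lists were chosen with earlier results of these data known. Members given with values were those with the smallest and largest p over batches in each role, the 3 with the largest and the 3 with the smallest residual SD, the 3 with the smallest p for sex, those with a PL eQTL in the study's table, and those of the 7 pairs. Ndufc1, Ndufb8, Mrpl35, Mrpl46, Mrpl48, Mrpl54, Timm10b and Timm22 were named after their values were seen, and so was the column block. Alternatives were a pseudocount of 8, a mean log2 of at least 5, centring of each library, a rank-based inverse normal transformation, depth as a covariate, no variance trend, the sexes alone, and no rat of batch 5. Those added after seeing the data were the column block and leaving out the lowest rat of batch 4. The fits were tested on simulated data. The values of 1 member are not reported here by name, although the counts and medians over the members include it.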

Additional observations from a re-analysis of the deposited data

Results flagged for a closer look

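Within each sex of each batch of suitable size, the highest and the lowest rat of a member were set against the rest by Dixon's test, which by chance alone picks about 1 in 20 groups. It picked 8 of 123 groups, all on the log2 scale. Ndufaf8, a complex I assembly factor, was picked in both sexes of batch 6, with a lowest male at 6.919 (the next at 7.435, n = 8) and a lowest female at 7.033 (the next at 7.5, n = 8). Ndufaf6 had a highest male of batch 6 at 7.679 (the next at 7.267, n = 8), and Ndufaf7 a highest male of batch 3 at 9.855 (the next at 9.644, n = 10). Mrpl32 had a lowest male of batch 3 at 7.229 (the next at 7.644, n = 10), and Mrpl48 a highest male of batch 6 at 9.938 (the next at 9.702, n = 8). Timm22 had a highest female of batch 6 at 9.375 (the next at 9.098, n = 8). Cox6b2, which rests on few reads, had a highest male of batch 6 at 4.858 (the next at 4.000, n = 8).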

How the results depend on the processing

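Most calls between batches were lost with the column block in the model, among all genes as among the members. Between batches 6 and 2, 6602 genes were called without it and 77 with it, while the median member difference went from -0.159 to -0.164. The latter value is linked only through batch 3, of which 3 rats lie in block 3. Between batches 4 and 3 the median member difference went from -0.276 to -0.149. With the block as a covariate 0 members were called over the batches (30 without it), 0 were lower in batch 6 than in batch 2 (20) and 0 were lower in batch 4 than in batch 3 (32), and among the rats of block 3 alone the first and the last count were 0. With the block as a covariate the batch 6 minus batch 2 differences of Ndufa3, Cox6a2 and Cox18 turned to 0.11, 0.24 and 0.0496, and the batch 4 minus batch 3 differences of Cox6a2, Cox6b2 and Cox18 to 0.33, 0.42 and 0.13, or 0.34, 0.43 and 0.14 within block 3, none of them called. Batch and block cannot be told apart for most rats. In female rats alone 3 members were lower in batch 6 than in batch 2, where batch 2 has 3 females. Of all genes 278 were lower in females alone and 3048 in all rats. The 7 members lower in block 3 became 2 with rank-transformed values, 2 in males and 1 in females, and the 21 higher in block 2 than in block 1 became 12 in males and 7 in females. The median residual SD was 0.170 with the block removed and 0.192 otherwise. Under the alternatives planned, and without the lowest rat of batch 4, the member counts ran from 22 to 35 over the batches. Those of all genes ran from 6225 to 10976. No member was called for sex or for the interaction under any alternative. For the median difference, rank-transformed values are in other units (-0.809 for batches 6 and 2) and the fit without a variance trend has the same differences, so neither was compared. No paired analysis was possible because each rat gave 1 PL library, and sex and batch differ between rats. Low read numbers limit Cox6a2, Cox6b2 and Cox7a1.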
